A study of Mus musculus with 3 samples.

Results

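The 40 genes described here encode proteins that copy the chromosomes before a cell divides or that separate them in mitosis. They were named by symbol, and all 40 are among the 27998 genes counted in single-nucleus RNA sequencing of mouse hearts at embryonic day 9.5. By role, 26 form a mitosis list, 13 form a replication list, and Ccnd2, a D-type cyclin that acts in G1, stands alone. Ncx1, also named Slc8a1, encodes the exchanger that moves calcium out of heart muscle cells in return for sodium. The hearts were homozygous mutant (Ncx1-/-), heterozygous (Ncx1+/-) or wild type (Ncx1+/+), and the labels name no driver that restricts the mutation to a cell type. Each genotype gave 1 library, made from 5 pooled, flash-frozen hearts whose nuclei had passed a flow cytometry sort for quality. Embryos lacking this exchanger do not develop a regular heartbeat, so blood does not circulate. With 1 library for each genotype, no difference between genotypes could be tested, and every interval below is a 95% interval of counting error only.

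Chromosomes are copied in S phase. The MCM helicase opens the double helix, ribonucleotide reductase supplies the building blocks, and DNA polymerases, their sliding clamp and a ligase build the new strands. In mitosis, the cyclin B kinase Cdk1 and the Aurora and Polo kinases drive chromosome condensation and spindle assembly, kinesins move chromosomes and spindle fibres, and a checkpoint holds the cell until every chromosome is attached. Heart muscle cells of the early embryo still divide while they contract. The muscle of the atrioventricular canal and the outflow tract is known for dividing more slowly than that of the expanding chambers.

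Both lists are known targets of the cell cycle transcription machinery. E2F factors act on genes of S phase, whereas genes of mitosis are read through CCAAT boxes and a short element called the cell cycle genes homology region (CHR). RefSeq promoter windows of build GRCm38.p6, which run from 250 bases before to 50 after a start, matched 33 of the 40 members by symbol. The windows below show both kinds, with 2 mitosis genes first and 2 replication genes after them. Ccnb2 (cyclin B2) is at chr9:70421505-70421804, Top2a (topoisomerase II alpha) at chr11:99024140-99024439, Pola1 (catalytic subunit of DNA polymerase alpha) at chrX:93632106-93632405 and Mcm6 (a helicase subunit) at chr1:128359656-128359955. All 4 lie on the minus strand and are written 5′ to 3′. Capitals mark, on either strand, CCAAT, the CHR letters TTTGAA, and the E2F letters, which were TTCCCGC, the variant TTCGCGC and the variant TTGGCGC.
Ccnb2: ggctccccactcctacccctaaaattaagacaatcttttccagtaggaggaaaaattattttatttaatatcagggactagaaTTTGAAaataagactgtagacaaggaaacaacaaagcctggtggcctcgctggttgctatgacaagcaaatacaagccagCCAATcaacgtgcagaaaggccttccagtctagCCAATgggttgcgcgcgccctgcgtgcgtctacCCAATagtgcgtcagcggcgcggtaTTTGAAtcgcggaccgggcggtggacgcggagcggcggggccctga
Top2a: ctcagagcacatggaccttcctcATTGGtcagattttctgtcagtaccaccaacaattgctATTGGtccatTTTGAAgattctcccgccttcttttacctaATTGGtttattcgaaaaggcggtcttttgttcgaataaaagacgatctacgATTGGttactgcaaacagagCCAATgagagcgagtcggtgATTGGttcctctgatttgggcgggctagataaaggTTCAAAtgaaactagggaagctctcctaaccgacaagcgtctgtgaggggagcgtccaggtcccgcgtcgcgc
Pola1: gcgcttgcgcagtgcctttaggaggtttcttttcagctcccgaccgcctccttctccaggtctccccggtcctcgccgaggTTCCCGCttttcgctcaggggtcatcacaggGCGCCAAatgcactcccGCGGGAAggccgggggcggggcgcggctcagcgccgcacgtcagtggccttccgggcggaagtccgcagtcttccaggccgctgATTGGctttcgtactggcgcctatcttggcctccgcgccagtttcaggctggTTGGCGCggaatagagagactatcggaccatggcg
Mcm6: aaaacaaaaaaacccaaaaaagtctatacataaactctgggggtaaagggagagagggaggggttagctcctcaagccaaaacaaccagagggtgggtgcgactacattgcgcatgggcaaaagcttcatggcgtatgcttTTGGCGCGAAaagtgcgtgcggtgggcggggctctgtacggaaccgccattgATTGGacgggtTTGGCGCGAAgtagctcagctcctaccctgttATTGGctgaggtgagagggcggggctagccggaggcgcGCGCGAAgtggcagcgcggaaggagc

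The letters of the CHR stood in a window of 18 of 22 mitosis members, in 1 of 11 replication members (Mcm2) and in 20.2% of all 27025 genes with a window. In 17 of those 18 mitosis members the nearest CHR lay within 60 bases of the start, as it did in 32.4% of all genes that had one. CCAAT was held by 20 of 22 mitosis members, 10 of 11 replication members and 41.1% of all genes. The E2F letters were held by 8 of 11 replication members, 6 of 22 mitosis members and 9.20% of all genes. E2F letters shared bases with a CCAAT box in 3 of 24 mitosis windows and 1 of 14 replication windows, and with a second E2F match in 4 replication windows. CHR letters shared bases with neither in the members' windows. The other cell cycle genes, listed from textbook knowledge, split the same way in the CHR and the E2F letters: the CHR was found in 20 of 32 other mitosis genes and 4 of 25 other replication genes, and the E2F letters in 6 of 32 and 18 of 25. CCAAT was held by 19 of 32 other mitosis genes and 14 of 25 other replication genes, smaller shares than in the members. These matches describe letters in a window and are not evidence of binding.

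**Figure D1:**
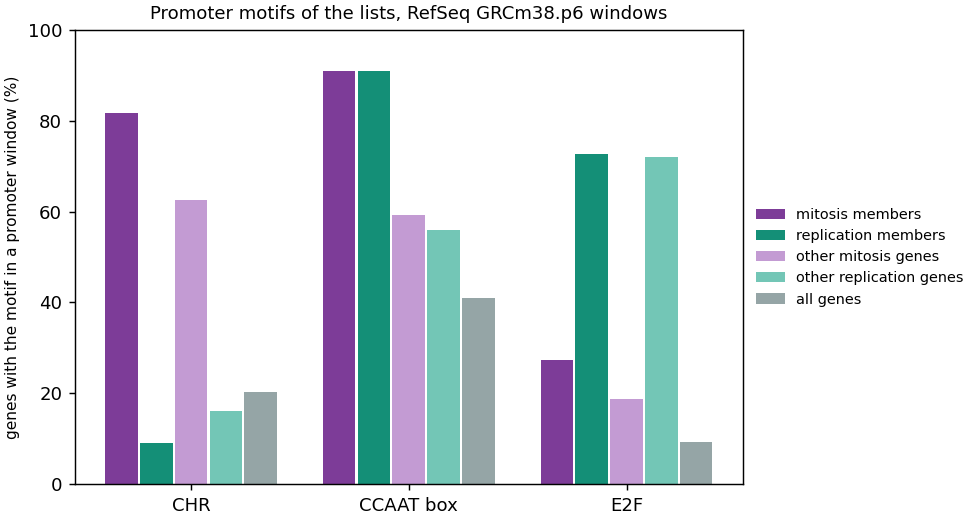
Share of genes with a motif in at least 1 promoter window, in percent, for the mitosis and replication members, the other mitosis and replication genes, and all genes. CHR letters stand in 81.8% of mitosis members against 9.09% of replication members, and E2F letters in 27.3% of mitosis members against 72.7% of replication members.

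The tables held 12525 barcodes for Ncx1-/-, 12563 for Ncx1+/- and 13805 for Ncx1+/+, with 52985283 (Ncx1-/-), 49022310 (Ncx1+/-) and 59898298 (Ncx1+/+) unique molecular identifiers (UMIs), and 144 barcodes occurred in 2 libraries. After filtering, 11231 Ncx1-/-, 11267 Ncx1+/- and 12464 Ncx1+/+ nuclei remained. They were assigned to classes by their UMIs of marker genes, none of which is a member. Slc8a1 stood at 1269 counts per 1000000 (CPM) in Ncx1-/- cardiomyocyte nuclei, 8819 in Ncx1+/- and 16887 in Ncx1+/+, in the order of the labels. Malat1, a nuclear noncoding RNA whose share moves with how nuclei are prepared, made up 9.47% of the UMIs of Ncx1-/- cardiomyocyte nuclei, 5.82% in Ncx1+/- and 5.65% in Ncx1+/+. With Malat1 left out before thinning, the cardiomyocyte ratios of Ncx1-/- to Ncx1+/+ given next were 0.878 for mitosis and 0.690 for replication.

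A nucleus was counted as having several members when UMIs of at least 3 different members of a list were found in it. Because deeper nuclei show more genes, each nucleus was thinned to 2000 UMIs, which left out 895 Ncx1-/-, 1476 Ncx1+/- and 1367 Ncx1+/+ nuclei. Among cardiomyocytes, 46.0% of 8292 Ncx1-/- nuclei (45.0 to 47.1), 55.1% of 7367 Ncx1+/- nuclei (54.0 to 56.3) and 53.2% of 8025 Ncx1+/+ nuclei (52.1 to 54.3) had several mitosis members. Several replication members were found in 12.8% of 8292 Ncx1-/- nuclei (12.1 to 13.5), 18.8% of 7367 Ncx1+/- nuclei (17.9 to 19.7) and 19.8% of 8025 Ncx1+/+ nuclei (18.9 to 20.7). Both shares were lower in Ncx1-/- than in the other libraries, and the counting intervals did not overlap. The share in Ncx1-/- over that in Ncx1+/+ was 0.865 (0.838 to 0.892) for mitosis and 0.646 (0.601 to 0.693) for replication. Ncx1+/- over Ncx1+/+ gave 1.04 (1.01 to 1.07) and 0.949 (0.890 to 1.01). The mitosis result depended on the cutoff of 3 members. At least 10 mitosis members were found in 10.7% (Ncx1-/-), 11.8% (Ncx1+/-) and 10.4% (Ncx1+/+) of the thinned cardiomyocyte nuclei, where Ncx1-/- was not the lowest. Without thinning, the share with several mitosis members was 53.9% (Ncx1-/-), 61.1% (Ncx1+/-) and 61.2% (Ncx1+/+). Several replication members were then found in 2671 of 8907 Ncx1-/- nuclei, 3006 of 8227 Ncx1+/- nuclei and 3493 of 8769 Ncx1+/+ nuclei, a ratio of 0.753 for Ncx1-/- over Ncx1+/+. Nuclei reached the libraries through the quality sort, whose effect on these shares was not tested.

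Cardiomyocyte nuclei with several mitosis members, which were picked for their mitosis UMIs and so had to hold many, held 91.1% of the mitosis UMIs in Ncx1-/-, 92.8% in Ncx1+/- and 92.3% in Ncx1+/+. Pairs of members show which genes were found in the same nuclei. Of the nuclei with a UMI of Bub1, a checkpoint kinase, 72.1% (Ncx1-/-), 70.7% (Ncx1+/-) and 74.0% (Ncx1+/+) also had Top2a, against 34.1% (Ncx1-/-), 41.1% (Ncx1+/-) and 40.8% (Ncx1+/+) of nuclei without Bub1. Helicase genes are known to be read earlier in the cycle than Top2a. Nuclei with Mcm6 held Top2a in 33.0% (Ncx1-/-), 37.3% (Ncx1+/-) and 36.3% (Ncx1+/+) of cases, below the 38.9% (Ncx1-/-), 46.1% (Ncx1+/-) and 46.2% (Ncx1+/+) of nuclei without Mcm6. Rrm2 and Brca1, also replication members, went the other way in each library. Nuclei with Rrm2 held Top2a in 52.3% (Ncx1-/-), 58.6% (Ncx1+/-) and 59.3% (Ncx1+/+), against 37.5%, 43.8% and 43.6% without Rrm2. Nuclei with Brca1 held it in 60.7% (Ncx1-/-), 60.1% (Ncx1+/-) and 61.2% (Ncx1+/+), against 35.5%, 42.7% and 42.5% without Brca1. Pola1 was found with Ccne2, a cyclin of S phase entry, in 51.8% (Ncx1-/-), 56.5% (Ncx1+/-) and 60.4% (Ncx1+/+) of nuclei, against 27.3% (Ncx1-/-), 36.5% (Ncx1+/-) and 36.4% (Ncx1+/+) without Ccne2. No class of the embryonic heart is known to be free of dividing cells, so none gives a level for RNA taken up from the solution.

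Nuclei with several mitosis members also had more UMIs, with a median of 4441 against 3234 for the other Ncx1-/- cardiomyocytes, 4127 against 3060 in Ncx1+/-, and 4435 against 3366 in Ncx1+/+. The filter on doublet scores removed 11.3% of such nuclei in Ncx1-/-, 9.35% in Ncx1+/- and 9.62% in Ncx1+/+, against 4.65% (Ncx1-/-), 4.95% (Ncx1+/-) and 3.77% (Ncx1+/+) of the others. A cluster of 223 nuclei with a median of 10340 UMIs held 144 Ncx1-/-, 68 Ncx1+/- and 11 Ncx1+/+ nuclei, of which 81.9% (Ncx1-/-), 86.8% (Ncx1+/-) and 90.9% (Ncx1+/+) had several mitosis members.

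**Figure D2:**
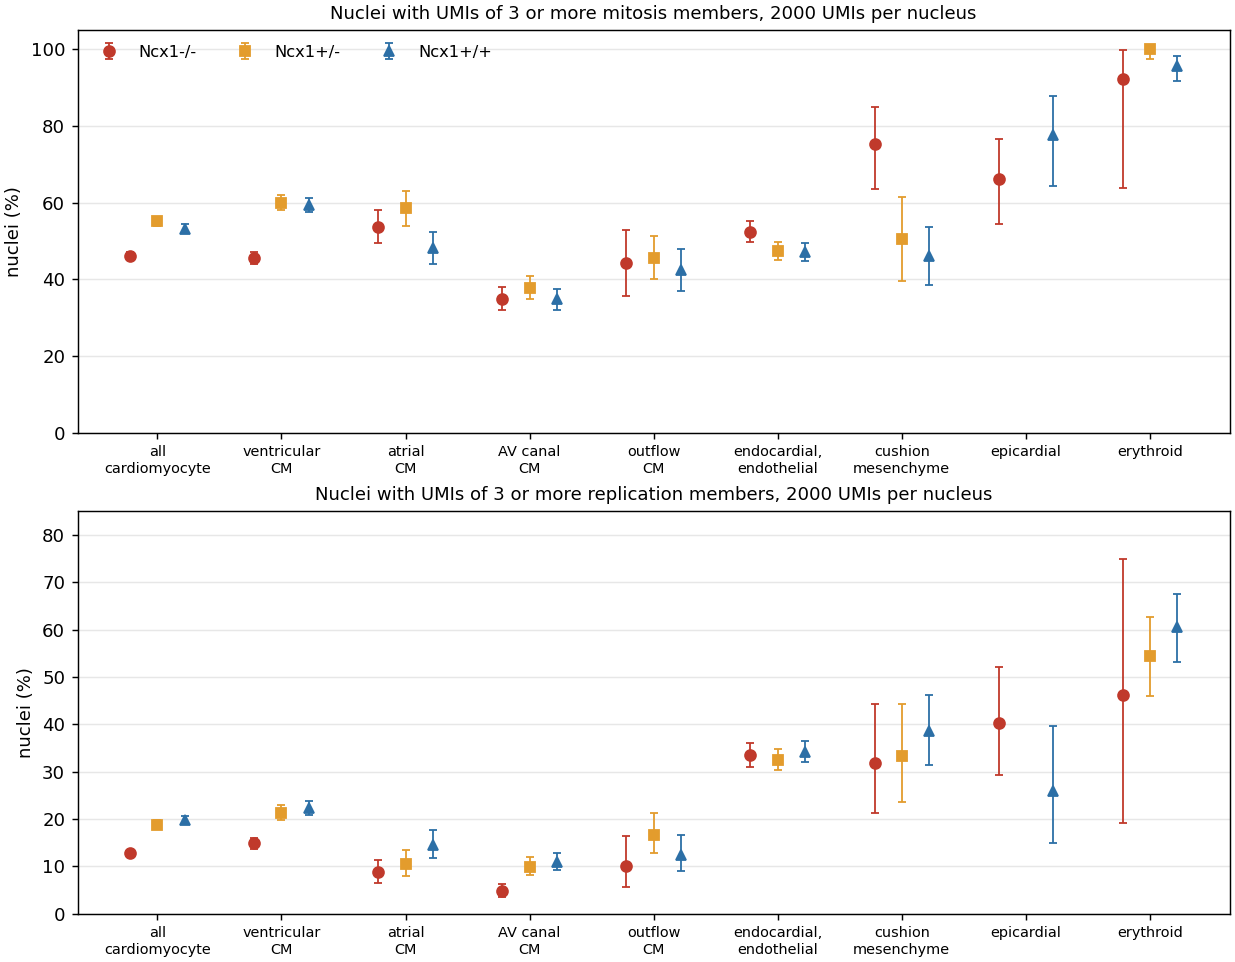
Share of nuclei, in percent, with UMIs of at least 3 mitosis members (top) or replication members (bottom) by class and chamber after thinning to 2000 UMIs; CM, cardiomyocyte; AV, atrioventricular. Points are libraries and bars 95% exact binomial intervals, and a group of 2 Ncx1+/- epicardial nuclei is left out. Ventricular nuclei of Ncx1-/- sit at 45.7% for mitosis, below 60.1% in Ncx1+/- and 59.5% in Ncx1+/+.

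Within the heart muscle, the mitosis share differed by chamber. In the ventricle it was 45.7% of 3811 Ncx1-/- nuclei (44.1 to 47.3), 60.1% of 2579 Ncx1+/- nuclei (58.1 to 62.0) and 59.5% of 2804 Ncx1+/+ nuclei (57.7 to 61.3), a ratio of 0.768 (0.733 to 0.804) for Ncx1-/- over Ncx1+/+. In the atrioventricular canal it was 35.0% (Ncx1-/-), 37.8% (Ncx1+/-) and 34.8% (Ncx1+/+), a ratio of 1.00 (0.894 to 1.13). Atrial nuclei showed 53.8% (Ncx1-/-), 58.5% (Ncx1+/-) and 48.2% (Ncx1+/+) with a ratio of 1.12 and an interval that holds 1, and outflow tract nuclei 44.2% (Ncx1-/-), 45.7% (Ncx1+/-) and 42.4% (Ncx1+/+) with a ratio of 1.04 (0.832 to 1.31). The counting interval of the ventricular ratio overlapped with none of the other 3, but the differences between chambers were not tested. Canal nuclei had the lowest share of the 4 chambers in each library. The canal share over the ventricular share was 0.766 (0.698 to 0.840) in Ncx1-/-, 0.629 (0.579 to 0.684) in Ncx1+/- and 0.585 (0.539 to 0.636) in Ncx1+/+. The atrial share over the ventricular share was 1.18 (1.08 to 1.28) in Ncx1-/-, 0.974 (0.898 to 1.06) in Ncx1+/- and 0.810 (0.740 to 0.887) in Ncx1+/+. The atrium was thus above the ventricle in Ncx1-/- and below it in Ncx1+/+. The atrial share in Ncx1+/- over that in Ncx1+/+ was 1.21 (1.08 to 1.36). Without thinning, the atrial ratio of Ncx1-/- to Ncx1+/+ was 1.11 (1.01 to 1.22), an interval that excludes 1. Without thinning, the ventricular mitosis share was 54.6% (Ncx1-/-), 66.8% (Ncx1+/-) and 68.6% (Ncx1+/+) and the canal one 40.0% (Ncx1-/-), 44.8% (Ncx1+/-) and 42.8% (Ncx1+/+). No chamber was given to 3155 of 8907 Ncx1-/-, 3404 of 8227 Ncx1+/- and 3562 of 8769 Ncx1+/+ cardiomyocyte nuclei. In that group, thinned to 2000 UMIs, the mitosis ratio of Ncx1-/- to Ncx1+/+ was 0.864 (0.823 to 0.906). Its replication ratio was 0.601 (0.537 to 0.673). A lower mitosis share in Ncx1-/- was thus not limited to nuclei gated as ventricular.

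The replication share was lower in Ncx1-/- than in Ncx1+/+ in the ventricle, the canal and the atrium. In ventricular nuclei it was 14.9% (Ncx1-/-), 21.3% (Ncx1+/-) and 22.3% (Ncx1+/+), with a ratio of 0.666 (0.601 to 0.738) for Ncx1-/- over Ncx1+/+. In the canal it was 4.76% (Ncx1-/-), 9.96% (Ncx1+/-) and 11.0% (Ncx1+/+), with a ratio of 0.434 (0.314 to 0.601). In the atrium it was 8.71% (Ncx1-/-), 10.5% (Ncx1+/-) and 14.5% (Ncx1+/+), with a ratio of 0.601 (0.428 to 0.846). Each of these intervals lay below 1, but without thinning the atrial ratio was 0.869 (0.714 to 1.06), which holds 1. In the outflow tract the share was 10.1% (Ncx1-/-), 16.7% (Ncx1+/-) and 12.5% (Ncx1+/+), with a ratio of 0.814 (0.458 to 1.45). The canal thus paired a mitosis share that was alike in Ncx1-/- and Ncx1+/+ with the smallest replication ratio of the 4 chambers. Differences between chambers were not tested, and the counting interval of this canal ratio overlapped with those of the atrium and the outflow tract. The counts behind that ratio were 46 of 966 Ncx1-/- nuclei, 107 of 1074 Ncx1+/- nuclei and 131 of 1194 Ncx1+/+ nuclei. Without thinning, the canal replication share was 14.9% (Ncx1-/-), 21.5% (Ncx1+/-) and 24.0% (Ncx1+/+), a ratio of 0.620, and the ventricular one 34.3% (Ncx1-/-), 42.1% (Ncx1+/-) and 46.4% (Ncx1+/+). Leaving Malat1 out before thinning, an alternative chosen after the data were seen, gave 0.624 in the canal, where Malat1 made up 10.6% (Ncx1-/-), 7.10% (Ncx1+/-) and 7.47% (Ncx1+/+) of the UMIs.

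Trabecular muscle, gated by UMIs of Nppa, Bmp10 and 5 other genes, was set against other ventricular muscle. The mitosis share of trabecular nuclei was 40.7% (Ncx1-/-), 60.5% (Ncx1+/-) and 55.1% (Ncx1+/+). Other ventricular nuclei had several mitosis members in 1473 of 3152 cases in Ncx1-/-, 1247 of 2080 in Ncx1+/- and 1359 of 2241 in Ncx1+/+. Ncx1-/- over Ncx1+/+ was 0.739 (0.656 to 0.832) in trabecular and 0.771 (0.733 to 0.810) in other ventricular nuclei, with overlapping intervals. Trabecular over other ventricular nuclei gave 0.870 (0.788 to 0.961) in Ncx1-/-, 1.01 (0.933 to 1.09) in Ncx1+/- and 0.908 (0.837 to 0.985) in Ncx1+/+.

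The ventricular gate held 35.7% of all Ncx1-/- nuclei, 24.5% of Ncx1+/- and 23.8% of Ncx1+/+, and 341 (Ncx1-/-), 312 (Ncx1+/-) and 367 (Ncx1+/+) of its nuclei stood within 20% above its limit. The canal gate held 1041 (Ncx1-/-), 1197 (Ncx1+/-) and 1274 (Ncx1+/+) nuclei. Ventricular nuclei were spread over several clusters, led by cluster 0 in Ncx1-/- (27.8%) and Ncx1+/- (18.9%) and by cluster 7 in Ncx1+/+ (18.4%). Canal nuclei lay mostly in cluster 3 in each library (89.5% for Ncx1-/-, 85.8% for Ncx1+/- and 87.8% for Ncx1+/+).

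**Figure D3:**
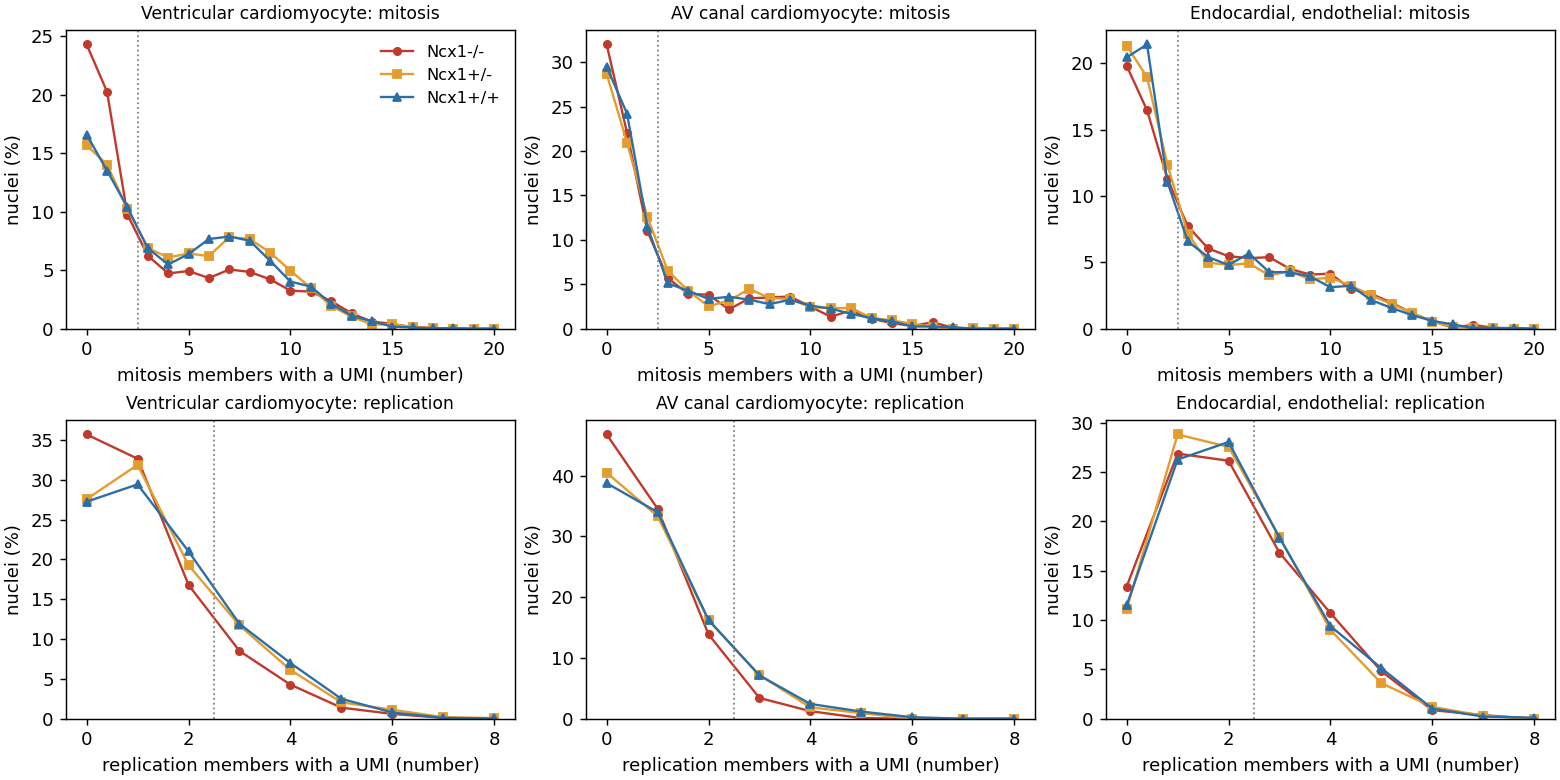
Number of mitosis members (top, out of 26) or replication members (bottom, out of 13) with a UMI per nucleus against the percent of nuclei, at 2000 UMIs, in ventricular, atrioventricular (AV) canal and endocardial nuclei of each library. The dotted line parts nuclei with fewer than 3 members from those with several; in the ventricle 24.3% of Ncx1-/- nuclei have 0 mitosis members, against 15.7% in Ncx1+/- and 16.6% in Ncx1+/+.

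After thinning, endocardial and endothelial nuclei differed from the muscle in replication. Several replication members were found in 33.6% of 1373 Ncx1-/- nuclei (31.1 to 36.1), 32.5% of 1666 Ncx1+/- nuclei (30.3 to 34.8) and 34.2% of 1854 Ncx1+/+ nuclei (32.0 to 36.4), a ratio of 0.982 (0.891 to 1.08) for Ncx1-/- over Ncx1+/+. These shares were 2.63 (2.39 to 2.88) times in Ncx1-/-, 1.73 (1.59 to 1.88) times in Ncx1+/- and 1.73 (1.60 to 1.87) times in Ncx1+/+ those of cardiomyocytes of the same library. The mitosis share was 52.4% (Ncx1-/-), 47.4% (Ncx1+/-) and 47.1% (Ncx1+/+), a ratio of 1.11 (1.04 to 1.19). Without thinning it was 60.5% (Ncx1-/-), 59.3% (Ncx1+/-) and 62.0% (Ncx1+/+), where the ratio is 0.975. The replication share without thinning was 61.0% (Ncx1-/-), 65.7% (Ncx1+/-) and 72.9% (Ncx1+/+), a ratio of 0.837 (0.797 to 0.879). That interval excludes 1, as does the cardiomyocyte one without thinning (0.723 to 0.784). The median depth of the endocardial and endothelial nuclei was 3660 UMIs in Ncx1-/-, 4149 in Ncx1+/- and 4899 in Ncx1+/+. Cluster 10 held 83.0% of the Ncx1-/- nuclei and 51.5% of the Ncx1+/- nuclei, whereas cluster 11 led in Ncx1+/+ with 51.9%. UMIs of the 13 cardiomyocyte markers, all detected, stood at 27.8 per 10000 in Ncx1-/-, 19.4 in Ncx1+/- and 18.0 in Ncx1+/+ in this class, and their part in the shares was not tested.

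Smaller classes rest on few nuclei. Cushion mesenchyme nuclei had several mitosis members in 52 of 69 Ncx1-/- nuclei (75.4%, 63.5 to 84.9), 44 of 87 Ncx1+/- nuclei (50.6%, 39.6 to 61.5) and 81 of 176 Ncx1+/+ nuclei (46.0%, 38.5 to 53.7). The ratio of Ncx1-/- to Ncx1+/+ was 1.64 (1.33 to 2.02), and 1.38 without thinning. Their replication share was 31.9% (Ncx1-/-), 33.3% (Ncx1+/-) and 38.6% (Ncx1+/+), a ratio of 0.825 (0.558 to 1.22). Of these nuclei, 68.1% of the Ncx1-/- ones lay in cluster 8, whereas cluster 11 held 70.5% in Ncx1+/- and 77% in Ncx1+/+. Cluster 8 as a whole was given no class, since 52.9% of its nuclei passed no gate. In the cushion nuclei, UMIs of the 12 endocardial markers stood at 14.2 per 10000 in Ncx1-/-, 37.2 in Ncx1+/- and 31.7 in Ncx1+/+. Their part in the ratios of this class was not tested. Epicardial nuclei had several mitosis members in 51 of 77 Ncx1-/- nuclei (66.2%) and 42 of 54 Ncx1+/+ nuclei (77.8%), and several replication members in 31 of 77 Ncx1-/- and 14 of 54 Ncx1+/+ nuclei. That replication ratio was 1.55 (0.917 to 2.63) for Ncx1-/- over Ncx1+/+, and 0.909 without thinning. Erythroid nuclei had the highest mitosis shares, in 12 of 13 nuclei in Ncx1-/-, 147 of 147 in Ncx1+/- and 182 of 190 in Ncx1+/+, and their replication share was 46.2% (Ncx1-/-), 54.4% (Ncx1+/-) and 60.5% (Ncx1+/+). Most erythroid nuclei fell under 2000 UMIs, so these shares describe the deeper ones.

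Counts were then summed over each class and scaled to CPM, where fewer dividing nuclei and less RNA in each cannot be told apart. A gene with at least 100 counts in a class was measured, as were all 40 members in cardiomyocytes, the ventricle, the canal and the endocardium, and was called when its CPM differed at least 1.5-fold with a counting interval that excluded 1. In cardiomyocytes, 1 of 40 members was called lower in Ncx1-/- than in Ncx1+/+, against 5.38% of 14180 measured genes, and 0 were called higher, against 7.5%. The median log2 ratio of Ncx1-/- to Ncx1+/+ was -0.40 over the 13 replication members, -0.09 over the 26 mitosis members and -0.02 over all measured genes. Ratios were below 1 for 11 of 13 replication members and 20 of 26 mitosis members, against 52% of all genes. Other scalings left 17 of 26 mitosis members and 11 of 13 replication members below 1. For Ncx1+/- over Ncx1+/+, both medians were near 0 (0.00 for replication and 0.04 for mitosis).

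Genes of nucleotide supply and strand synthesis had ratios among the lowest. Rrm2, the subunit of ribonucleotide reductase that is made in S phase, stood at 36.2 CPM in Ncx1-/-, 55.1 in Ncx1+/- and 59.1 in Ncx1+/+ and was the called member (0.613, 0.571 to 0.657). It was called lower than in both other libraries, as were 2.91% of measured genes. Rrm1, the partner subunit, stood at 43.1 (Ncx1-/-), 55.2 (Ncx1+/-) and 59.1 (Ncx1+/+) CPM (0.728, 0.681 to 0.778). Pola1 stood at 224 CPM in Ncx1-/-, 309 in Ncx1+/- and 323 in Ncx1+/+ (0.695, 0.675 to 0.715). Each of the 3 was lowest in Ncx1-/-, and Ncx1+/- lay close to Ncx1+/+. Pcna, the sliding clamp, had a ratio of 0.710, whereas Lig1, which joins the fragments of the lagging strand, had 1.05 with an interval that holds 1.

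Of the 6 helicase subunits, 5 had ratios below 1, with 0.750 for Mcm2, 0.841 for Mcm3, 0.804 for Mcm4 and 0.760 for Mcm5. Mcm6 stood at 40.3 CPM in Ncx1-/-, 50.7 in Ncx1+/- and 50.8 in Ncx1+/+ (0.792, 0.739 to 0.850). Mcm7 lay on the other side of 1, at 59.0 (Ncx1-/-), 58.2 (Ncx1+/-) and 55.1 (Ncx1+/+) CPM (1.07, 1.01 to 1.14). Among the cyclins, Ccne2 had a ratio of 0.695. Ccnd2 stood at 187 CPM in Ncx1-/-, 279 in Ncx1+/- and 272 in Ncx1+/+ (0.689, 0.667 to 0.710), and Brca1, which acts in repair of breaks at replication forks, at 71.7 (Ncx1-/-), 85.4 (Ncx1+/-) and 84.4 (Ncx1+/+) CPM (0.850, 0.806 to 0.896). Ccnd2 was also found outside the nuclei with several members: 22.8% (Ncx1-/-), 26.8% (Ncx1+/-) and 23.7% (Ncx1+/+) of nuclei with several of neither list held a UMI of it.

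Mitosis members varied around a ratio slightly below 1. Top2a, which untangles sister chromosomes, stood at 451 CPM in Ncx1-/-, 489 in Ncx1+/- and 495 in Ncx1+/+ (0.912, 0.892 to 0.931). Mki67, which coats mitotic chromosomes, stood at 179 (Ncx1-/-), 218 (Ncx1+/-) and 189 (Ncx1+/+) CPM (0.943, 0.911 to 0.976), highest in Ncx1+/-. Of the spindle genes, Tpx2, an activator of Aurora A, stood at 140 (Ncx1-/-), 152 (Ncx1+/-) and 137 (Ncx1+/+) CPM (1.02, 0.983 to 1.06) and the chromokinesin Kif4 at 125 (Ncx1-/-), 142 (Ncx1+/-) and 138 (Ncx1+/+) CPM (0.906, 0.870 to 0.944). The lowest mitosis ratios were those of Kif11 (0.757), the kinesin that pushes spindle poles apart, and Cdca2 (0.788), a chromatin-bound partner of protein phosphatase. The checkpoint kinase Bub1 stood at 77.5 (Ncx1-/-), 88.5 (Ncx1+/-) and 87.9 (Ncx1+/+) CPM (0.882, 0.837 to 0.929) and its relative Bub1b at 61.3 (Ncx1-/-), 72.4 (Ncx1+/-) and 73.8 (Ncx1+/+) CPM (0.830, 0.784 to 0.879).

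The kinases that start mitosis lay near a ratio of 1 in muscle. Cdk1 stood at 67.8 CPM in Ncx1-/-, 71.5 in Ncx1+/- and 64.9 in Ncx1+/+ (1.05, 0.987 to 1.11), and Aurka at 52.5 (Ncx1-/-), 55.8 (Ncx1+/-) and 54.2 (Ncx1+/+) CPM (0.968, 0.908 to 1.03). Ccnb2 stood at 53.5 (Ncx1-/-), 48.6 (Ncx1+/-) and 46.5 (Ncx1+/+) CPM (1.15, 1.08 to 1.23), the highest ratio of the mitosis list, followed by Cenpf (1.11), a centromere protein, and Aspm (1.10), a protein of the spindle poles. In cytokinesis, Ect2, which activates the contractile ring, stood at 206 (Ncx1-/-), 238 (Ncx1+/-) and 236 (Ncx1+/+) CPM (0.874, 0.846 to 0.902), and Prc1, which bundles the central spindle, at 185 (Ncx1-/-), 192 (Ncx1+/-) and 178 (Ncx1+/+) CPM (1.04, 1.00 to 1.07).

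**Figure D4:**
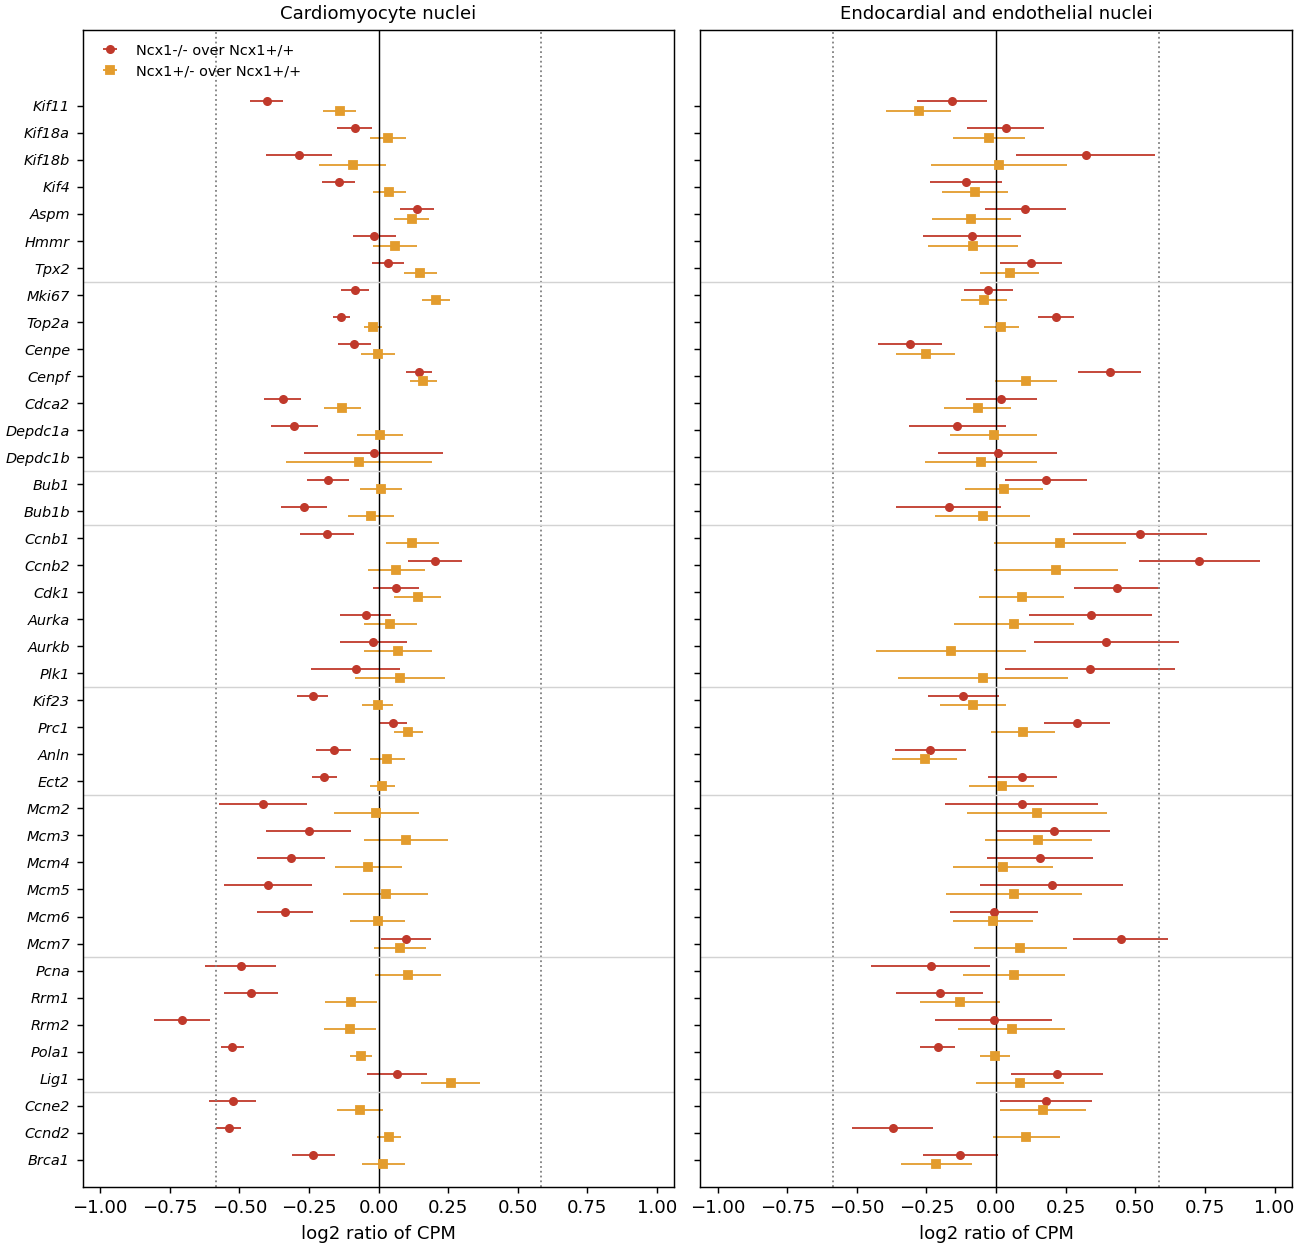
Log2 ratio of CPM for each of the 40 members in cardiomyocyte nuclei (left) and endocardial and endothelial nuclei (right), Ncx1-/- over Ncx1+/+ and Ncx1+/- over Ncx1+/+, with 95% counting intervals. Dotted lines mark 1.5-fold. Rrm2 alone is past the dotted line in cardiomyocytes for Ncx1-/- over Ncx1+/+ (0.613), and Ccnb2 alone in endocardial nuclei (1.66).

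The ventricle and the canal differed in which list was low, a difference that was not tested. The list medians of the atrium and the outflow tract are not given here. In ventricular nuclei the median log2 ratio of Ncx1-/- to Ncx1+/+ was -0.25 over the mitosis members, with 23 of 26 below 1, and -0.31 over the replication members, with 11 of 13 below 1. All 12360 measured genes had a median of 0.00 and 49.8% below 1. Rrm2 (0.632, 0.571 to 0.701) and Ccnd2 (0.614, 0.588 to 0.641) were the members called lower there, against 4.31% of genes, and 0 were called higher, against 8.89%. The share of members called lower was thus near that of the genes as a whole. Ccnd2 stood at 218 CPM in ventricular Ncx1-/- nuclei, 360 in Ncx1+/- and 355 in Ncx1+/+. In the canal the medians were 0.05 for mitosis, with 11 of 26 below 1, and -0.56 for replication, with 12 of 13 below 1, against 0.00 over all genes and 50.4% below 1.

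In the canal, 6 replication members were called lower, Mcm3, Mcm4, Mcm5, Mcm6, Rrm2 and Pola1, against 5.56% of 9943 genes, and 0 members were called higher, against 5.85%. Of these, Mcm3, Mcm4, Mcm6 and Rrm2 were called lower than in both other libraries, against 2.97% of genes. The genes given here were picked out after their values were seen. Rrm2 stood at 13.7 CPM in Ncx1-/-, 32.9 in Ncx1+/- and 33.0 in Ncx1+/+ (0.416, 0.298 to 0.573), from 52 (Ncx1-/-), 133 (Ncx1+/-) and 158 (Ncx1+/+) counts. Mcm6 stood at 23.8 (Ncx1-/-), 41.5 (Ncx1+/-) and 38.6 (Ncx1+/+) CPM (0.616, 0.473 to 0.796) and Pola1 at 144 (Ncx1-/-), 213 (Ncx1+/-) and 232 (Ncx1+/+) CPM (0.621, 0.559 to 0.688). For each of these 3 the Ncx1-/- level was the lowest. Of the other replication genes, 10 of 32 were called lower in the canal, among them Uhrf1, which keeps DNA methylation through replication, at 12.7 (Ncx1-/-), 31.9 (Ncx1+/-) and 33.8 (Ncx1+/+) CPM (0.375, 0.266 to 0.520), and 0 of 37 other mitosis genes were called. The kinases of mitosis did not share the low ratios: Aurkb stood at 31.4 (Ncx1-/-), 19.0 (Ncx1+/-) and 21.5 (Ncx1+/+) CPM (1.46, 1.11 to 1.92) and Cdk1 at 50.9 (Ncx1-/-), 52.2 (Ncx1+/-) and 51.5 (Ncx1+/+) CPM (0.989, 0.815 to 1.20).

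In the atrium, 2 members were called lower, Mcm2 (0.486, 0.283 to 0.814) and Ccne2 (0.576, 0.432 to 0.762), against 6.33% of 7868 genes, and Prc1 was called higher (1.54, 1.32 to 1.79), against 4.75%. In the outflow tract, Cenpf, Hmmr, Ccnb1 and Mcm7 were called higher, against 6.34% of 5412 genes, and Rrm2 and Brca1 lower, against 7.8%. Those outflow counts are small, with 15 (Ncx1-/-), 50 (Ncx1+/-) and 64 (Ncx1+/+) of Rrm2 and 42 (Ncx1-/-), 53 (Ncx1+/-) and 48 (Ncx1+/+) of Ccnb1. Genes called in these chambers were named after their values were seen. The number of members measured in the atrium and the outflow tract is not given here. No share of members called is therefore set beside that of the genes as a whole, and these calls describe single genes only.

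**Figure D5:**
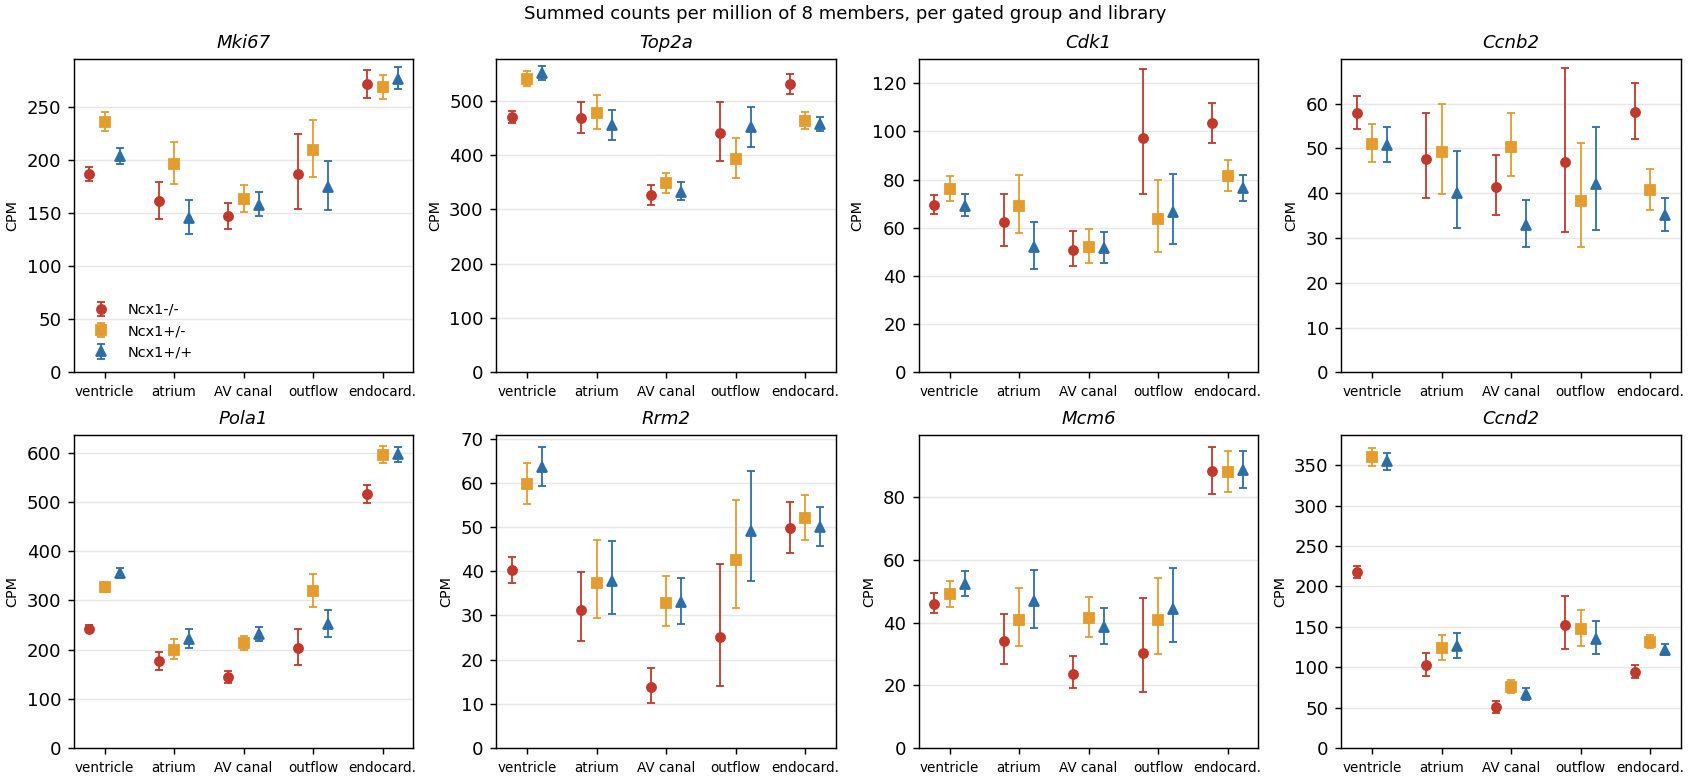
Summed CPM of 8 members in ventricular, atrial, atrioventricular (AV) canal and outflow tract cardiomyocyte nuclei and in endocardial and endothelial nuclei, 1 point per library with its 95% Poisson interval. Ccnd2 stands at 218 CPM in ventricular Ncx1-/- nuclei, against 360 in Ncx1+/- and 355 in Ncx1+/+, and Rrm2 at 13.7 CPM in canal Ncx1-/- nuclei, against 32.9 in Ncx1+/- and 33.0 in Ncx1+/+.

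In endocardial and endothelial nuclei, the median log2 ratio of Ncx1-/- to Ncx1+/+ was 0.10 over the mitosis members and 0.09 over the replication members, beside 0.10 over all 10875 measured genes. Both list medians thus lay beside that of the genes as a whole. Scaling with TMM factors moved the median of all genes to -0.03, and the list medians became -0.03 and -0.03. Mitosis members below 1 numbered 9 of 26, against 40.4% of genes, and 15 of 26 with TMM factors. Ccnb2 was the 1 member called higher than in Ncx1+/+, against 14.9% of genes, at 58.1 CPM in Ncx1-/-, 40.7 in Ncx1+/- and 35.1 in Ncx1+/+ (1.66, 1.43 to 1.93). It was not called against Ncx1+/-. In this class 0 members were called lower, against 6.11%.

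The 6 cyclins and kinases of mitosis lay together above 1 in that class. Their ratios ran from 1.26 for Plk1, the Polo kinase, to 1.66 for Ccnb2, with Cdk1 at 103 (Ncx1-/-), 81.5 (Ncx1+/-) and 76.5 (Ncx1+/+) CPM (a ratio of 1.35) and Aurka at 50.2 (Ncx1-/-), 41.5 (Ncx1+/-) and 39.6 (Ncx1+/+) CPM (1.27, 1.09 to 1.47). Their median log2 ratio was 0.41, against 0.03 over the 7 kinesins and spindle genes and 0.01 over the 7 chromosome and centromere genes. Mcm7 stood at 86.9 (Ncx1-/-), 67.7 (Ncx1+/-) and 63.8 (Ncx1+/+) CPM (1.36, 1.21 to 1.53) and Mcm6 at 88.2 (Ncx1-/-), 88.0 (Ncx1+/-) and 88.7 (Ncx1+/+) CPM (0.995, 0.892 to 1.11). Top2a stood at 531 (Ncx1-/-), 463 (Ncx1+/-) and 457 (Ncx1+/+) CPM (1.16, 1.11 to 1.22), Mki67 at 271 (Ncx1-/-), 268 (Ncx1+/-) and 276 (Ncx1+/+) CPM (0.981, 0.922 to 1.04) and Pola1 at 516 (Ncx1-/-), 595 (Ncx1+/-) and 597 (Ncx1+/+) CPM (0.864, 0.828 to 0.903). Ccnd2 was at 94.0 (Ncx1-/-), 131 (Ncx1+/-) and 122 (Ncx1+/+) CPM (0.774, 0.699 to 0.855), lowest in Ncx1-/- as in cardiomyocytes.

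Genes of the same pathways that are not among the 40 members were taken from a list of 94. In cardiomyocytes the 35 other replication genes had a median log2 ratio of Ncx1-/- to Ncx1+/+ of -0.35, with 33 below 1, and the 37 other mitosis genes -0.10, with 29 below 1. Of the 94 genes, 5 were called lower than in Ncx1+/+ (Tyms, Prim1, Chaf1b, Cdk6 and E2f2) and 1 higher (Cdkn1a), beside 5.38% and 7.5% of all measured genes, so the shares called were no larger than in the genes as a whole. Cdkn1a, an inhibitor of cyclin-dependent kinases, stood at 7.01 CPM in Ncx1-/-, 3.57 in Ncx1+/- and 3.45 in Ncx1+/+ (2.03, 1.63 to 2.55) and was called against both libraries, beside 4.36% of all genes. E2f2, an activating E2F factor, stood at 4.33 (Ncx1-/-), 7.18 (Ncx1+/-) and 7.72 (Ncx1+/+) CPM (0.561, 0.457 to 0.686), and Chaf1b, a subunit of the chromatin assembly factor that follows the fork, had a ratio of 0.625. E2f2 and Chaf1b were also called lower than in both other libraries, whereas Tyms at 41.9 (Ncx1-/-), 62.6 (Ncx1+/-) and 66.5 (Ncx1+/+) CPM, Cdk6 at 128 (Ncx1-/-), 186 (Ncx1+/-) and 197 (Ncx1+/+) CPM and Prim1 were called lower than in Ncx1+/+ only.

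Of the 92 other genes measured in the endocardial class, 0 were called lower and 2 higher than in Ncx1+/+, against 6.11% and 14.9% of all genes, both below the share of the genes as a whole. Rb1, the retinoblastoma protein that holds E2F factors back, stood at 78.3 CPM in Ncx1-/-, 51.0 in Ncx1+/- and 44.4 in Ncx1+/+ (1.76, 1.55 to 2.01) and was called against both libraries, beside 7.24% of all genes. Kif20a, a kinesin of cytokinesis, stood at 27.2 (Ncx1-/-), 20.5 (Ncx1+/-) and 14.2 (Ncx1+/+) CPM (1.91, 1.52 to 2.41). Cdkn1a was also called higher in the canal, at 15.3 (Ncx1-/-), 7.42 (Ncx1+/-) and 6.47 (Ncx1+/+) CPM (2.37, 1.51 to 3.79), from 58 (Ncx1-/-), 30 (Ncx1+/-) and 31 (Ncx1+/+) counts.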

How the data were processed

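The values deposited by the authors are raw UMI counts per gene and barcode. Cell Ranger 6.1.0 and build mm10 were used per the submitters' processing notes, while per the file headers the tables were written by version 9.0.0; the counting of introns is not stated in the labels. Barcodes needed at least 500 genes and no more than 5% mitochondrial UMIs. In each library, nuclei whose Scrublet score reached the cutoff of the top 8%, tied scores included, were removed as likely doublets (scanpy 1.11.5). This removed 1094 of 12325 Ncx1-/-, 1038 of 12305 Ncx1+/- and 1098 of 13562 Ncx1+/+ nuclei, more than 8% in each. Classes, chambers and trabecular nuclei were gated by UMIs of marker lists per 10000 (cardiomyocyte at least 100, endocardial 20, cushion mesenchyme 15, epicardial 4, erythroid 60). Nuclei were also clustered (2000 variable genes, Leiden resolution of 1) to check the gates. Cardiomyocyte nuclei had a median of 232 of their own markers and 0 endothelial ones per 10000, and endocardial nuclei 62.0 of their own and 15.5 cardiomyocyte ones.

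Shares have exact binomial (Clopper-Pearson) intervals at 95%. Summed counts were scaled to CPM, and ratios have exact conditional Poisson intervals. No test between genotypes was possible. TMM factors came from edgeR 4.0.16. The genes named with their CPM are the 2 members with the most counts in each of 8 roles, members called in cardiomyocytes or endocardial nuclei, and other cell cycle genes called there; others are named with a ratio or were picked after their values were seen. The members, lists, gates and rules were chosen with earlier results of these data known. Alternatives changed the number of members, the depth of thinning, the gates, the doublet filter, the scaling and the fold. Of 27998 gene identifiers, 27645 (98.7%) matched GENCODE M21.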

Additional observations from a re-analysis of the deposited data

Results flagged for a closer look

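The share of nuclei with several mitosis members differed in opposite directions between classes. Ncx1-/- over Ncx1+/+ was 0.865 in cardiomyocytes, 1.11 in endocardial and endothelial nuclei and 1.64 in cushion mesenchyme nuclei. The difference between the classes was not tested, since each genotype has 1 library. The endocardial ratio was 0.975 without thinning, and most Ncx1-/- cushion nuclei lay in another cluster than most of those of the other libraries. That cluster was given no class, since 52.9% of its nuclei passed no gate.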

How the results depend on the processing

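Of the planned recalculations, 220 were rated the same, 30 moved and 6 reversed. Of those chosen after the data were seen, 46 were rated the same and 2 moved. These left out Malat1, the deepest cluster, Pola1 from the replication list, or Mki67 and Top2a from the mitosis list. A ratio of shares was rated the same when it stayed within the main counting interval, even if it crossed 1. It was rated reversed only when the main interval excluded 1. In the canal, 6 of 12 alternatives of the mitosis ratio stayed on its side of 1. For endocardial replication in Ncx1-/- over Ncx1+/-, 8 of 13 did. The cause of these changes was not tested. Without thinning, the cardiomyocyte mitosis ratio was 0.999 for Ncx1+/- over Ncx1+/+ and 0.881 for Ncx1-/- over Ncx1+/-, the replication ratio 0.753 for Ncx1-/- over Ncx1+/+ and 0.821 over Ncx1+/-, the endocardial mitosis ratio 0.975 over Ncx1+/+ and 1.02 over Ncx1+/-, the endocardial replication ratio 0.837 and 0.928, and the canal replication ratio 0.620. At 4000 UMIs, the cardiomyocyte mitosis ratio of Ncx1-/- was 0.949 over Ncx1+/+ and 0.897 over Ncx1+/-, the replication ratio 0.773 and 0.795, the ventricular ratios 0.889 for mitosis and 0.783 for replication, the canal replication ratio 0.691, and the endocardial replication ratio of Ncx1+/- over Ncx1+/+ 1.06. At 1000 UMIs, the cardiomyocyte replication ratio was 0.600. With at least 2 members it was 0.750 over Ncx1+/+ and 0.757 over Ncx1+/-, and 0.685 in the canal. With at least 4 members it was 0.582 in Ncx1-/- and 0.888 in Ncx1+/- over Ncx1+/+, and the endocardial ratio of Ncx1-/- over Ncx1+/- was 1.19, or 1.20 without Pola1. Malat1 left out gave 0.624 for replication in the canal. The cardiomyocyte replication ratio of Ncx1-/- to Ncx1+/+ stayed between 0.582 and 0.773 in all 13 alternatives, and the ventricular mitosis ratio between 0.749 and 0.889 in all 12.

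At a fold of 2, 0 replication members were lower in cardiomyocytes and 0 mitosis members higher in endocardial nuclei. At the lower fold tried, 8 replication and 2 mitosis members were lower in cardiomyocytes, and 8 mitosis and 1 replication members higher in endocardial nuclei. The share of all measured genes past either fold was not counted, so these numbers have no background to be set against. TMM factors gave endocardial median log2 ratios of -0.027 for mitosis and -0.035 for replication, median-of-ratios factors -0.029 and -0.037, and either made 1 other cell cycle gene lower there, since all endocardial ratios shift down under them. The atrial replication ratio was 0.869 without thinning, with an interval that holds 1. No paired analysis was possible because each genotype has 1 library and no replicate numbers.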
